A study of Homo sapiens with 4 samples.

Results

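The epithelial keratins examined were 10 genes, KRT5, KRT6A, KRT7, KRT8, KRT14, KRT15, KRT17, KRT18, KRT19 and KRT80. All rows of the deposited accessibility table that carry one of these gene names were taken, promoter and distal, which gave 38 of 58127 regions. KRT80 had the most regions with 11, KRT8 had 8, KRT18 had 1, and each of the other 7 keratins had 2 or 3. Of the 38 regions, 16 lay in the table's common set, 2 in its shG8d-specific set and 20 in its shNC-specific set.

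ATAC-seq, in which a transposase inserts sequencing adapters into open DNA, was applied to MCF10A, an established and non-tumorigenic mammary epithelial line of human origin. The 4 libraries comprised 2 with SNHG8d knockdown by a short hairpin (shG8d, A and B) and 2 with the control hairpin (shNC, A and B). The study's title names SNHG8d, a long noncoding RNA, together with histone H1 and epithelial differentiation. No label says that the libraries came from separate cultures, and every p-value below therefore reflects no more than the scatter of these 4 libraries, which could be technical.

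Keratins are the intermediate filament proteins of epithelial cells. An acidic type I keratin pairs with a basic or neutral type II keratin, and the pairs assemble into filaments that are anchored at desmosomes and hemidesmosomes. In the mammary gland, KRT5 (type II) and KRT14 (type I) mark basal cells, whereas KRT8 (type II), KRT18 and KRT19 (type I) mark luminal cells, and KRT6A and KRT17 are a type II and a type I keratin induced in wounded or stressed epidermis. The type II genes and KRT18 lie on chromosome 12, and KRT14, KRT15, KRT17 and KRT19 lie on chromosome 17.

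The group labels of the table are exchanged between its sets, and the libraries are therefore named by depth. Each deposited value is a whole number of reads times the worth of 1 read, which was 0.842 and 0.807 normalized counts in the A and B libraries of a deeper pair and 1.21 and 1.17 in those of a shallower pair. In the common regions the deeper pair stands in the columns headed shG8d, and in either specific set it stands in those headed shNC, with the shallower pair under the other heading. No direction is therefore assigned to the knockdown, and every difference below is the deeper minus the shallower pair. Summed over all regions, reads numbered 8124488 and 8111839 in the deeper pair, against 4457248 and 4344212 in the shallower one. In bulk libraries, fewer cells with an open region cannot be told apart from less access per cell. Region lengths were not used here, so values are compared between libraries. Regions were ranked by mean only to pick or name them, and such a rank may reflect region length.

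The KRT5 promoter is shown because one of its regions lay at the transcription start site (TSS) and because it is the keratin start for which the RefSeq promoter table could be tied to a region by accession, NM_000424. The sequence is from RefSeq (GRCh38.p14, chr12:52520395-52520644, minus strand), written 5′ to 3′, and covers the 250 bases before the start with the 40 bases next to the start in capitals. The table's regions are on hg19 and were placed by their distance to the same start, with no conversion of coordinates.
KRT5 promoter: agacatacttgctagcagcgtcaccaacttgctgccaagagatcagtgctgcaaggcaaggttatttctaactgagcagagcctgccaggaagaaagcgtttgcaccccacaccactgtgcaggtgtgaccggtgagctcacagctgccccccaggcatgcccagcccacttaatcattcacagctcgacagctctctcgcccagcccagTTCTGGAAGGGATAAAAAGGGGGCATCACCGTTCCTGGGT
The 300-base RefSeq window that holds this stretch was searched on both strands for the core promoter box TATAAA, the AP-1 motif TGANTCA, the SP1 box GGGCGG and the AP-2 motif GCCNNNGGC, and none of these occurred in it. No match says only that these letters are not in this window. Among all 35116 promoter windows of that length, 11.5% held TATAAA, 7.71% held TGANTCA, 45.0% held GGGCGG and 23.2% held GCCNNNGGC.

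At the keratin promoters no region was called in either direction. Of the 11 KRT80 regions, 4 distal ones were called, with 1.98-fold to 4.0-fold higher values in the deeper pair. Uncalled regions lay between them, and 2 of the 11 had log2 differences below 0. KRT8 had 2 called distal regions with lower values. A region was called where limma's moderated test on log2(normalized count + 1) gave a Benjamini-Hochberg adjusted p under 0.05 over all 58127 regions. In the common set, 1 of 16 keratin regions was higher in the deeper pair and 2 were lower, where 10.7% of all common regions were called higher and 15% lower. In the shNC-specific set, 4 of 20 keratin regions were higher and 0 lower, where 13.2% of all regions of that set were higher and 0.979% lower. In the shG8d-specific set, 0 of 2 keratin regions were called by limma, where 0.0363% of that set's regions were called higher and 70% lower. Both were lower at an unadjusted p under 0.05, as were 2390 of the 2755 regions of that set. In the shNC-specific set 0 keratin regions were lower at an unadjusted p under 0.05 either, where 679 of all 21459 regions were. Voom weights gave 0 lower in the shNC-specific set and 0 in the shG8d-specific set. With 16, 20 and 2 regions these counts set nothing apart at the keratins from the other regions of each set. How the authors chose the specific regions is not given, and a test within such a set may not be independent of how it was made.

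The median keratin log2 difference was −0.13 in the common set, against −0.12 over all common regions, and 0.39 in the shNC-specific set, against 0.24 over all regions of that set. The 2 keratin regions of the shG8d-specific set had a median of −0.60, against −1.20 over that set. The libraries of the deeper pair both lay above those of the shallower pair in 5 common keratin regions and both below in 8, where 27.1% and 40% of all common regions did so. In the shNC-specific set both lay above in 11 keratin regions and below in 2, where 39.8% and 13.6% of all regions did so. In the shG8d-specific set both lay below in the 2 keratin regions and above in 0, where 94.7% of regions lay below and 0.29% above.

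**Figure D1:**
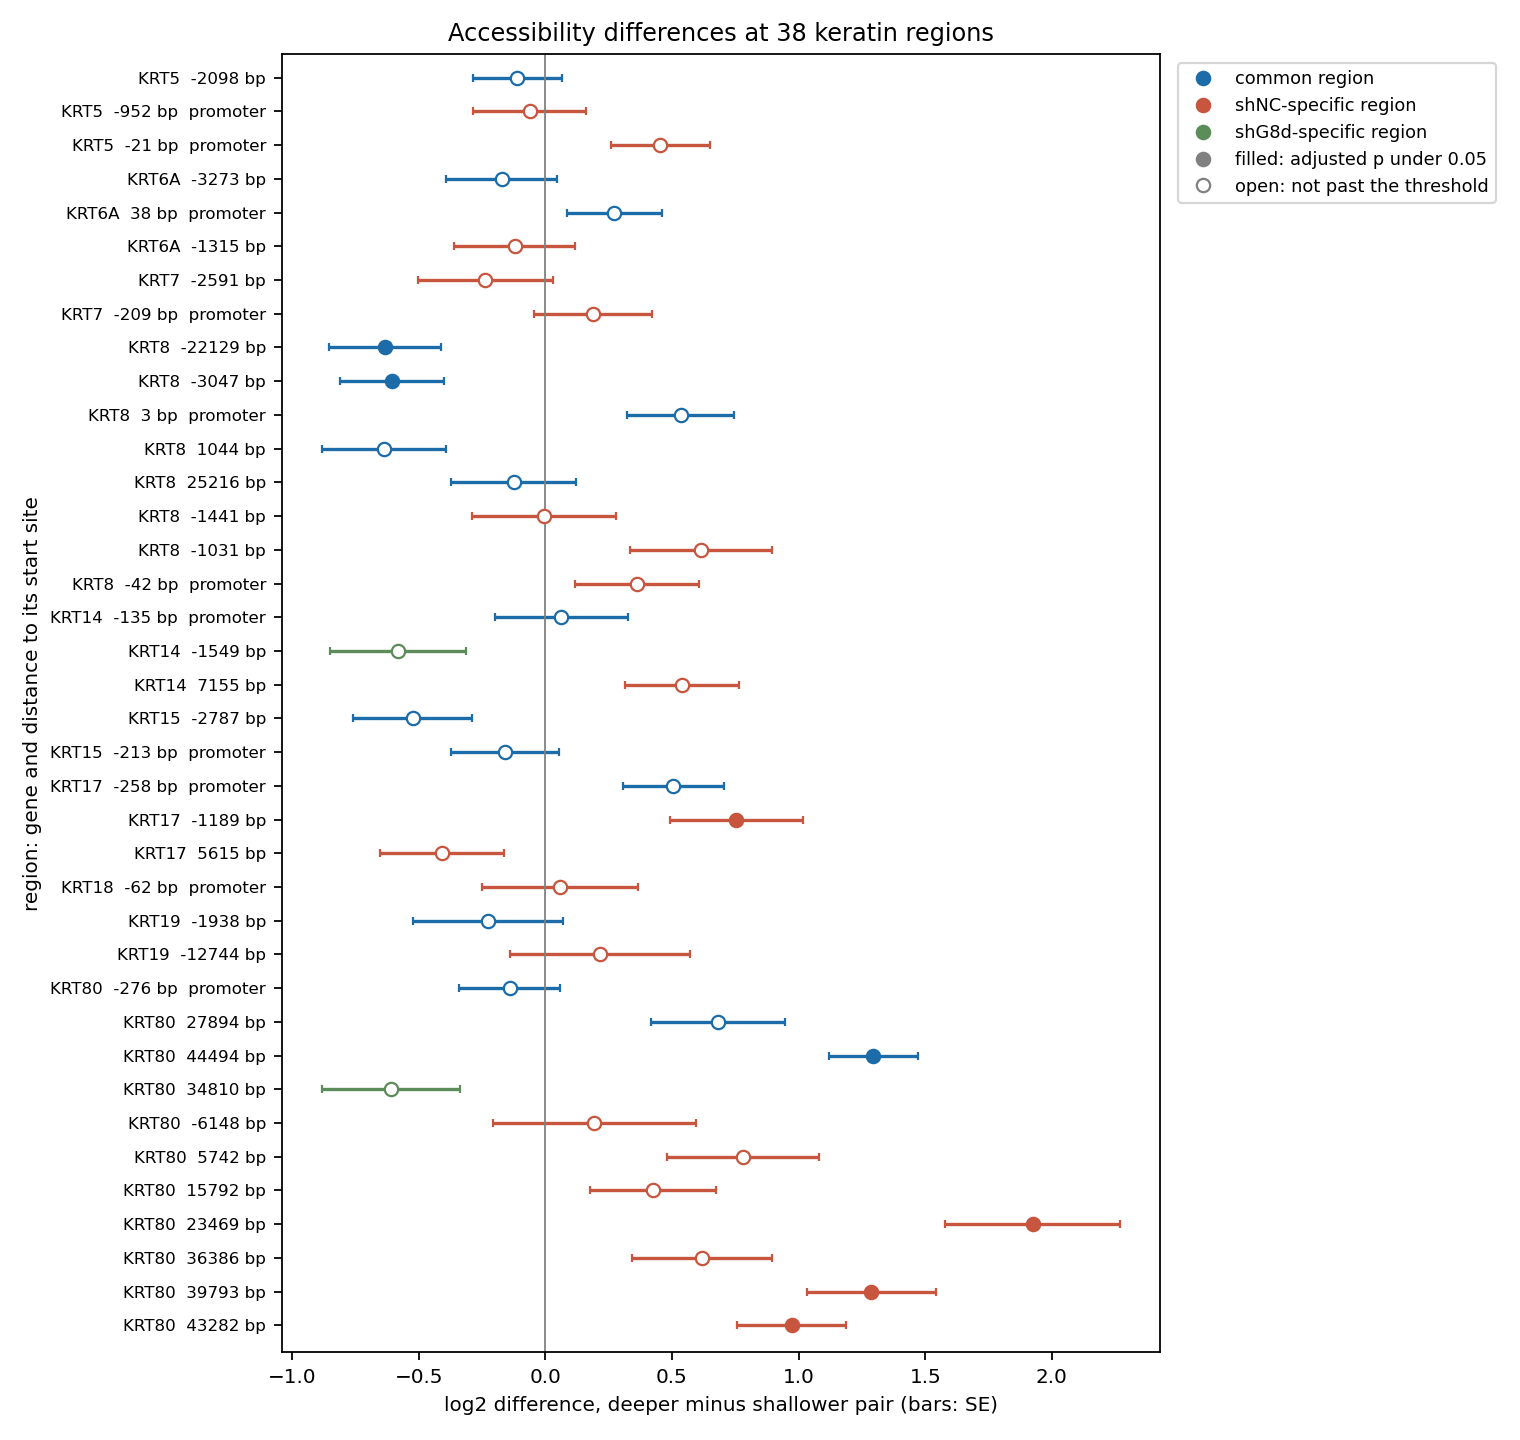
Log2 difference (deeper minus shallower pair, horizontal axis) of each of the 38 keratin regions, listed by gene and by distance in bases to the start, coloured by region set, filled where called, with bars showing the standard error. The regions run from −0.64 to 1.93, and 4 of the 5 called higher belong to KRT80.

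Promoter regions (annotated as promoter or within 1000 bases of a start) were found for 9 of the 10 keratins and numbered 11. KRT19, the smallest type I keratin, had none. None was called by limma or with voom weights. At an unadjusted limma p under 0.05, 3 of the 11 were higher and 0 lower. Of all 13020 promoter regions, 3561 were higher and 2228 lower at that p. The 11 log2 differences ranged from −0.16 to 0.53 with a median of 0.19, and 8 were above 0. Of the 13020 promoter regions, 7452 were above 0, and their median was 0.12. With 1 promoter per gene the median over the 9 keratins was also 0.19 and 0 were called, whereas 20.2% of 11473 genes with a promoter region were called higher and 10.7% lower, with a median of 0.14. Scaling the 4 libraries to equal totals shifted all log2 differences by a median of −0.35 and gave the 9 keratin promoters a median of −0.16, so the sign of this median depends on the scaling.

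Of the basal keratins, KRT5 had a region 21 bases before its start with 187.7 and 149.3 normalized counts in the deeper pair, against 126.8 and 117.2 in the shallower pair. Both deeper libraries were higher, by 1.38-fold (168.5 ± 27.1 against 122.0 ± 6.85, SD, n = 2 each), with a log2 difference of 0.45 (SE 0.195) that was not called by limma (adjusted p = 0.0977). Its region 952 bases before the start held 79.1 and 81.5 in the deeper pair, against 84.6 and 83.2 in the shallower pair (log2 difference −0.06). KRT5 thus had differences of opposite sign at the start and upstream of it, neither of them called. The highest KRT5 region by mean over all libraries, 2098 bases before the start and intergenic, held 175.9 and 186.4 in the deeper pair, against 199.3 and 192.1 in the shallower pair (log2 difference −0.11, limma adjusted p = 0.684).

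KRT14, the type I partner of KRT5, had 58.1 and 59.7 normalized counts at its promoter in the deeper pair, against 61.6 and 51.6 in the shallower pair. These values overlapped, and the log2 difference was 0.06 (SE 0.262, limma adjusted p = 0.889). The KRT14 region of highest mean lay 7155 bases past the start, with 99.3 and 96.8 in the deeper pair, against 70.1 and 64.4 in the shallower pair. It was 1.46-fold higher without overlap but was not called (log2 difference 0.54, SE 0.226, limma adjusted p = 0.0897). Its 1 shG8d-specific region, 1549 bases before the start, held 43.8 and 43.6 in the deeper pair, against 71.3 and 60.9 in the shallower pair, and was not called either (log2 difference −0.58, limma adjusted p = 0.123). KRT15, a type I keratin of basal cells, had 93.4 and 85.5 at its promoter in the deeper pair, against 101.5 and 98.4 in the shallower pair. Both deeper libraries were lower, at a log2 difference of −0.16 (limma adjusted p = 0.627, SE 0.214).

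Among the simple-epithelial keratins, KRT8 had 2 promoter regions at different annotated starts. At the start of NM_001256293 the values were 142.2 and 139.6 normalized counts in the deeper pair, against 114.8 and 82.0 in the shallower pair. The deeper pair was 1.43-fold higher without overlap (140.9 ± 1.85 against 98.4 ± 23.2, SD, n = 2 each), at a log2 difference of 0.53 (limma adjusted p = 0.0749, SE 0.213). Leaving out the A library of the shallower pair raised this log2 difference to 0.77, and leaving out its B library lowered it to 0.29. Without the A or the B library of the deeper pair it was 0.52 and 0.55. With equal library totals it was 0.18 (limma adjusted p = 0.546). The KRT5 region at the start, the KRT17 promoter and the distal KRT14 region behaved alike. Their log2 differences were 0.51, 0.65 and 0.60 without the A library of the shallower pair, and 0.40, 0.36 and 0.48 without its B library. At the start of NM_002273 the values were 74.9 and 103.3 in the deeper pair, against 74.9 and 62.1 in the shallower pair, and the log2 difference was 0.36 (limma adjusted p = 0.298).

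KRT18, the type I partner of KRT8, had a single region, at its promoter, with 68.2 and 68.6 normalized counts in the deeper pair, against 99.1 and 43.4 in the shallower pair. The deeper libraries lay between the shallower ones, and the mean was lower in the deeper pair (68.4 ± 0.302 against 71.2 ± 39.4, SD, n = 2 each) while the mean log2 value was higher. The log2 difference of 0.06 (SE 0.307, limma adjusted p = 0.912) became −0.53 without the B library of the shallower pair and 0.65 without its A library. The KRT7 promoter, of a type II keratin of simple and glandular epithelia, held 90.9 and 76.7 in the deeper pair, against 71.3 and 75.0 in the shallower pair (log2 difference 0.19, limma adjusted p = 0.591). Of the 2 distal KRT19 regions, the one 1938 bases before the start had 40.4 and 39.5 in the deeper pair, against 50.7 and 43.4 in the shallower pair. Neither this region (log2 difference −0.23, limma adjusted p = 0.617) nor the other one was called.

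The promoters of the wound-associated pair had values above the shallower pair in both deeper libraries. KRT17 had 201.1 and 159.0 normalized counts at its promoter in the deeper pair, against 138.9 and 113.6 in the shallower pair. Its log2 difference of 0.51 (SE 0.198, 1.43-fold) was not called over all regions (limma adjusted p = 0.0700) but was with each set fitted on its own (limma adjusted p = 0.0468). With equal library totals this difference was 0.15 (limma adjusted p = 0.587), and with 1 library left out it ran from 0.34 to 0.67. KRT6A had 169.2 and 214.7 at its promoter in the deeper pair, against 165.5 and 150.0 in the shallower pair (log2 difference 0.27, limma adjusted p = 0.309). KRT6A has close copies in KRT6B and KRT6C, and KRT14 and KRT17 in KRT16 and in pseudogenes, and how reads that fit several copies were placed is not given, so the values of these genes are uncertain. At the KRT80 promoter the values were 110.2 and 129.1 in the deeper pair, against 124.4 and 139.4 in the shallower pair, which overlap (log2 difference −0.14, limma adjusted p = 0.645).

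**Figure D2:**
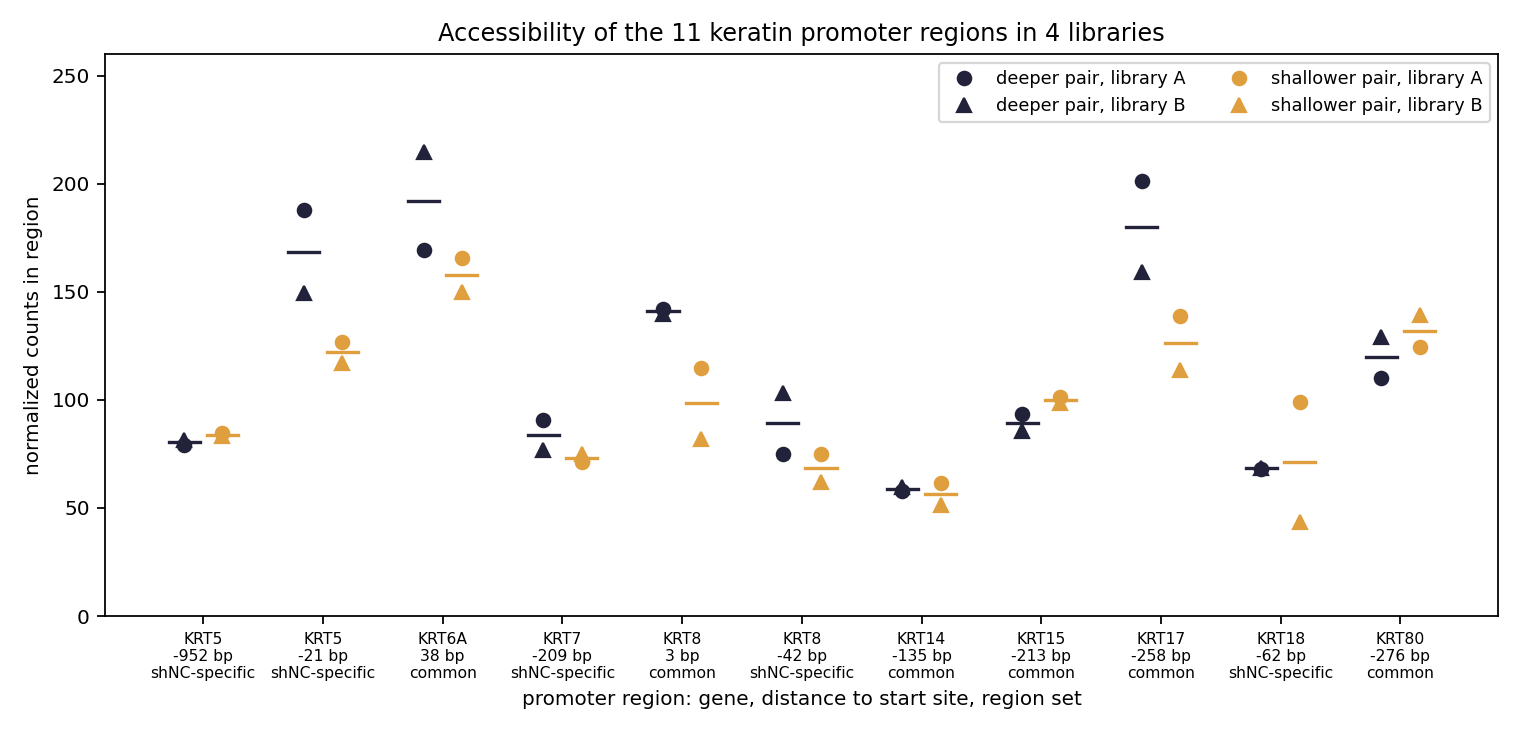
Normalized counts (vertical axis, from 0) at each of the 11 keratin promoter regions, with a point for each library (circle A, triangle B), the deeper pair left of the shallower pair, and a line at each pair's mean. KRT6A, KRT7, KRT17, the KRT5 region 21 bases before the start and the KRT8 region at NM_001256293 have both deeper libraries above both shallower ones, and the KRT15 region and the KRT5 region 952 bases before the start have them below. Of all 13020 promoter regions, 5183 have both deeper libraries above and 3630 have them below.

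The 27 distal keratin regions held all the calls, 5 higher and 2 lower, where 8.76% of all 45107 distal regions were called higher and 12.7% lower. Their median log2 difference was −0.0038, against −0.052 over all distal regions. Both lower regions belonged to KRT8. The region 22129 bases before the start of NR_045962 had 85.8 and 78.3 normalized counts in the deeper pair, against 149.8 and 109.0 in the shallower pair. The deeper libraries were both lower, at 0.634 of the shallower level (82.1 ± 5.35 against 129.4 ± 28.9, SD, n = 2 each), at a log2 difference of −0.63 (limma adjusted p = 0.0432, SE 0.221). The region 3047 bases before the start of NM_002273, in intron 1 of the 8 introns of NM_001256293, had 84.2 and 99.3 in the deeper pair, against 135.3 and 144.1 in the shallower pair. It was also lower without overlap (91.7 ± 10.7 against 139.7 ± 6.23, SD, n = 2 each), at a log2 difference of −0.61 (limma adjusted p = 0.0379, SE 0.205).

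Both KRT8 calls were lost without the A library of the deeper pair (limma adjusted p = 0.156 and 0.328, distal and intronic region) and without its B library (limma adjusted p = 0.239 and 0.110). Of the shallower pair, leaving out the A library removed the call of the distal region (log2 difference −0.41, limma adjusted p = 0.184), and leaving out the B library removed that of the intronic region (limma adjusted p = 0.0528). The same intron 1 also held regions with other values. One, 1044 bases past the start of NM_001256282, had 53.0 and 52.5 in the deeper pair, against 79.7 and 85.5 in the shallower pair (log2 difference −0.64, limma adjusted p = 0.0654). Another, 1031 bases before that start, had 70.7 and 56.5 in the deeper pair, against 44.7 and 37.5 in the shallower pair (log2 difference 0.61, limma adjusted p = 0.119). KRT8 regions thus lay on both sides of 0 within one gene. Its other 2 distal regions had log2 differences of −0.12 and −0.0038, and the distal regions of KRT6A, KRT7 and KRT15, 4 in all, ran from −0.52 to −0.12 with no call.

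The 1 distal call outside KRT8 and KRT80 was near KRT17, 1189 bases before its start and annotated at the end of the pseudogene KRT42P. It had 76.6 and 78.3 normalized counts in the deeper pair, from 91 and 97 reads, against 51.9 and 39.8 in the shallower pair, from 43 and 34 reads. The deeper pair was 1.69-fold higher (log2 difference 0.75, SE 0.263, limma adjusted p = 0.0435). The call was lost with equal library totals (log2 difference 0.41, limma adjusted p = 0.255), with each set fitted on its own (limma adjusted p = 0.138), without the A or the B library of the deeper pair (limma adjusted p = 0.207 and 0.210) and without the B library of the shallower pair (limma adjusted p = 0.120). The KRT17 region at the gene's own end, 5615 bases past the start, had 74.9 and 71.0 in the deeper pair, against 122.0 and 77.3 in the shallower pair, and was not called (log2 difference −0.41, limma adjusted p = 0.239).

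KRT80, a type II keratin of many epithelia that is associated with desmosomes, had its 4 called regions, 1 common and 3 shNC-specific, beyond 20 kb past the start of NM_182507. Of all common and all shNC-specific regions, 10.7% and 13.2% were called higher. The region 44494 bases past the start, annotated as intergenic, held 324.8 and 288.9 normalized counts in the deeper pair, against 128.1 and 120.7 in the shallower pair. The deeper pair was 2.47-fold higher (306.9 ± 25.4 against 124.4 ± 5.22, SD, n = 2 each), at a log2 difference of 1.29 (limma adjusted p = 8.39e-05, SE 0.176). This was the keratin region with the lowest adjusted p and the highest mean over the libraries. The region 43282 bases past the start had 129.6 and 131.5 in the deeper pair, against 68.9 and 63.3 in the shallower pair. Its log2 difference was 0.97 (SE 0.215, 1.98-fold, limma adjusted p = 0.00379). The region at 39793 bases had 116.1 and 112.2 in the deeper pair, against 56.8 and 37.5 in the shallower pair. Its log2 difference was 1.29 (SE 0.253, 2.42-fold, limma adjusted p = 0.00176).

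The fourth called region lay at the annotated end of KRT80, 23469 bases past the start, and had 70.7 and 53.3 normalized counts in the deeper pair, against 16.9 and 14.1 in the shallower pair. It showed the largest log2 difference of the 38 keratin regions, 1.93 (SE 0.346, 4.0-fold, limma adjusted p = 0.000914), on 84 and 66 reads in the deeper pair, against 14 and 12 in the shallower pair. Without the A library of the deeper pair this call and that of the region at 43282 bases were lost (limma adjusted p = 0.0577 and 0.0501). The regions at 44494 and 39793 bases were called in each of the 4 fits that left out 1 library and with equal library totals (limma adjusted p = 0.000676 and 0.00763).

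The other 3 KRT80 regions beyond 20 kb were not called. The regions at 27894 and 36386 bases had log2 differences of 0.68 and 0.62 (limma adjusted p = 0.0667 and 0.112). The shG8d-specific region at 34810 bases had 40.4 and 48.4 in the deeper pair, against 76.1 and 60.9 in the shallower pair, the only one of the 7 with lower values (log2 difference −0.61, limma adjusted p = 0.110). It lies 1576 bases from the region at 36386 bases, which had 86.7 and 63.8 in the deeper pair, against 58.0 and 39.8 in the shallower pair. The 4 regions nearer to or before the start, the promoter included, had log2 differences from −0.14 to 0.78 and were not called. Within the gene body, the region in intron 1, 5742 bases past the start, had 93.4 and 76.7 in the deeper pair, against 70.1 and 34.0 in the shallower pair (log2 difference 0.78, limma adjusted p = 0.0652).

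Over the 7 KRT80 regions beyond 20 kb the median log2 difference was 0.97. Over the other 31 keratin regions it was −0.0038, with 1 call higher and 2 lower, where 11.1% of all regions were higher and 12.4% lower. This grouping was made after the values were seen and carries no test. The gene name of a distal region is that of its nearest start in the table, and whether these regions act on KRT80 was not tested.

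**Figure D3:**
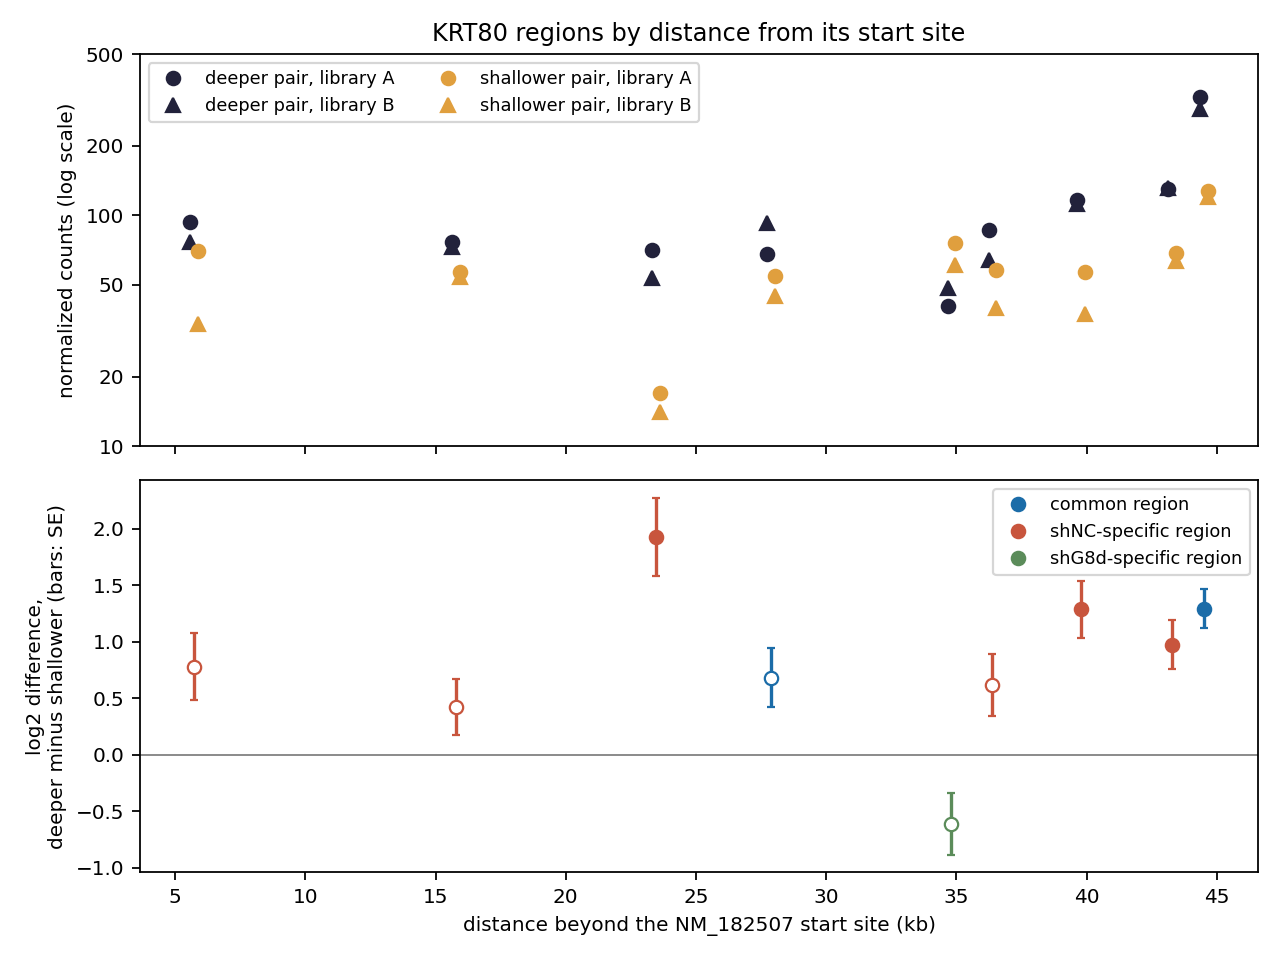
The KRT80 regions past the start of NM_182507, by distance in kb, with the normalized counts of each library on a log scale (upper panel, points of the pairs set slightly apart) and the log2 difference, deeper minus shallower pair, with its standard error (lower panel, coloured by region set, filled where called). The 4 called regions lie between 23469 and 44494 bases past the start, and the shG8d-specific region at 34810 bases lies below 0.

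The exchange of headings can be followed at KRT80, where regions of different sets lie close together. In the authors' deposited table, the log2 fold change of columns headed shG8d over shNC was 1.30 for the region at 44494 bases (deposited p = 2.58e-07) and −0.98 for the region at 43282 bases (deposited p = 0.00178). These regions are 1212 bases apart, one common and one shNC-specific. By library, both had higher values in the deeper pair, with log2 differences of 1.29 and 0.97. The authors' deposited table likewise gave −1.28 at 39793 bases and −2.00 at 23469 bases, where the deeper pair is headed shNC. Counting KRT80 regions by column heading therefore mixes directions between the sets.

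Among keratin genes outside the 10, promoter regions were few. Of 23 other type I keratins 2 had a promoter region, KRT16 and KRT23, and of 21 other type II keratins 2 had one, KRT6B and KRT78. KRT16, the usual partner of KRT6A, had a log2 difference of 0.23 (limma adjusted p = 0.572), and KRT6B had 0.10 (limma adjusted p = 0.788). KRT23, unlike the other 3, has its region in the shG8d-specific set, in which 70% of all regions were called lower. It had 16.8 and 11.3 normalized counts in the deeper pair, against 30.2 and 32.8 in the shallower pair, and was the 1 promoter called, lower (log2 difference −1.13, SE 0.403, limma adjusted p = 0.0476). Leaving out either deeper library, or the B library of the shallower pair, removed that call. Over all their regions, the other type II keratins had 4 of 25 higher and 2 lower, and the other type I keratins 0 of 23 higher and 2 lower, where 11.1% of all regions of the table were higher and 12.4% lower. The higher regions, of KRT74, KRT78 and KRT82, are shNC-specific, a set with 13.2% higher and 0.979% lower. The lower type I regions, of KRT12 and KRT23, are shG8d-specific. The lower type II regions, of KRT2 and KRT75, are common, where 15% were lower. These counts therefore do not compare the 2 types apart from the sets. Among the called type II regions, the one furthest above 0 was shNC-specific and lay 13237 bases before the start of KRT78. It had 38.7 and 41.2 in the deeper pair, against 12.1 and 12.9 in the shallower pair (log2 difference 1.60, limma adjusted p = 0.00621). At 1.21 and 1.17 normalized counts per read, the shallower values rest on few reads.

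Promoters of keratin linkers and partners, proteins that attach or bind keratin filaments, were called higher for 4 of the 12 genes that had a promoter region (14 listed) and lower for 0, also 0 at an unadjusted p under 0.05 and with voom weights, where 20.2% of all genes with a promoter region were called higher and 10.7% lower. Their median log2 difference was 0.40, against 0.14 over all 11473 genes. Among them were DSP (desmoplakin, which anchors keratins at desmosomes), with 124.6 ± 16.7 in the deeper pair against 79.9 ± 16.9 in the shallower one (SD, n = 2 each, log2 difference 0.64, limma adjusted p = 0.0437), and JUP (plakoglobin), with a log2 difference of 0.81 (limma adjusted p = 0.00921). EVPL, encoding the desmosomal and cornified-envelope protein envoplakin, had 163.9 ± 26.4 in the deeper pair against 75.4 ± 42.0 in the shallower one (SD, n = 2 each, log2 difference 1.22, limma adjusted p = 0.00522). With equal library totals 2 of the 12 were higher and 2 lower, and without the B library of the deeper pair 1 was higher.

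Among listed regulators of keratin genes, 20 genes of which 15 had a promoter region, 6 were higher and 3 lower, where 20.2% and 10.7% of all genes were. Their median log2 difference was 0.49, against 0.14 over all genes. The AP-1 subunit genes FOSL1 (common region) and JUNB (shNC-specific region) were higher, with log2 differences of 1.16 and 0.77 (limma adjusted p = 0.00153 and 0.0226). KLF5, a Kruppel-like factor of basal epithelia, was higher at 0.66 (limma adjusted p = 0.0135). The 3 lower genes were GRHL2, TFAP2A, which encodes AP-2α, and the ETS factor gene EHF. Their log2 differences were −0.84, −0.58 and −0.90 (limma adjusted p = 0.00354, 0.0460 and 0.0264). With equal library totals 3 were higher and 4 lower, without the A library of the deeper pair 3 and 0, and without its B library 2 and 1. Of 15 other intermediate filament genes, 5 had a promoter region: the lamin genes LMNA and LMNB1 were higher at 0.58 and 0.62 (limma adjusted p = 0.0252 and 0.0220), and VIM (vimentin) was at −0.12 and not called. These 2 higher and 0 lower stand beside the same 20.2% and 10.7% of all genes. Neither lamin call was made with equal library totals or without either deeper library.

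The cell line was checked by which marker genes have a promoter region. Of 10 genes listed as basal mammary epithelial markers 9 had one, TP63 being the exception. The list holds CDH1 and EPCAM, genes of epithelia in general, so it does not set basal cells apart. A promoter region was found for 1 of 5 luminal, 1 of 5 fibroblast, 2 of 5 immune and 0 of 5 endothelial markers. The 9 basal-list genes summed to 1522 and 1424 normalized counts in the deeper pair, against 1117 and 1063 in the shallower pair. Of the 9, 4 were called higher, where 20.2% of all genes were. Of these 4, ITGB4, CDH1 and EPCAM have shNC-specific regions and S100A2 a common one, and with equal library totals 3 of the 9 were higher and 1 lower. The 9 keratin promoters summed to 1121 and 1082 in the deeper pair, against 1004 and 871 in the shallower pair. The fibroblast marker with a region, PDGFRA, lies in the shG8d-specific set, in which 70% of all regions were called lower. It had 15.1 and 23.4 in the deeper pair, against 60.4 and 50.4 in the shallower pair, and was called lower (log2 difference −1.50, limma adjusted p = 0.00506). The luminal marker XBP1 had 103.5 and 100.1 in the deeper pair, against 129.3 and 107.8 in the shallower pair. The immune markers CD14 and CD68 summed to 258.4 and 242.9 in the deeper pair, against 291.1 and 280.0 in the shallower pair, with differences of opposite sign. CD14 had 87.5 and 96.0 in the deeper pair, against 159.5 and 181.6 in the shallower pair, and was called lower (log2 difference −0.89, limma adjusted p = 0.00408). CD68 had 170.8 and 146.9 in the deeper pair, against 131.7 and 98.4 in the shallower pair, and was not called (log2 difference 0.47, limma adjusted p = 0.0999). The part of these markers in the keratin values was not tested.

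The number of keratin calls depended on single libraries, as did the number of calls over all regions. With all 4 libraries 5 keratin regions were higher and 2 lower, and 13697 regions of the table were called. Without the A library of the deeper pair 2 keratin regions were higher and 0 lower, beside 4629 calls over the table, and without its B library 4 and 0, beside 6202. Without the A library of the shallower pair 12 were higher and 2 lower, beside 19153 calls over the table, and without its B library 4 and 2, beside 13748. With equal library totals 4 were higher and 7 lower, and over all regions the share of calls that were higher was then 13.6%, against 47.3% with the authors' scaling.

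**Figure D4:**
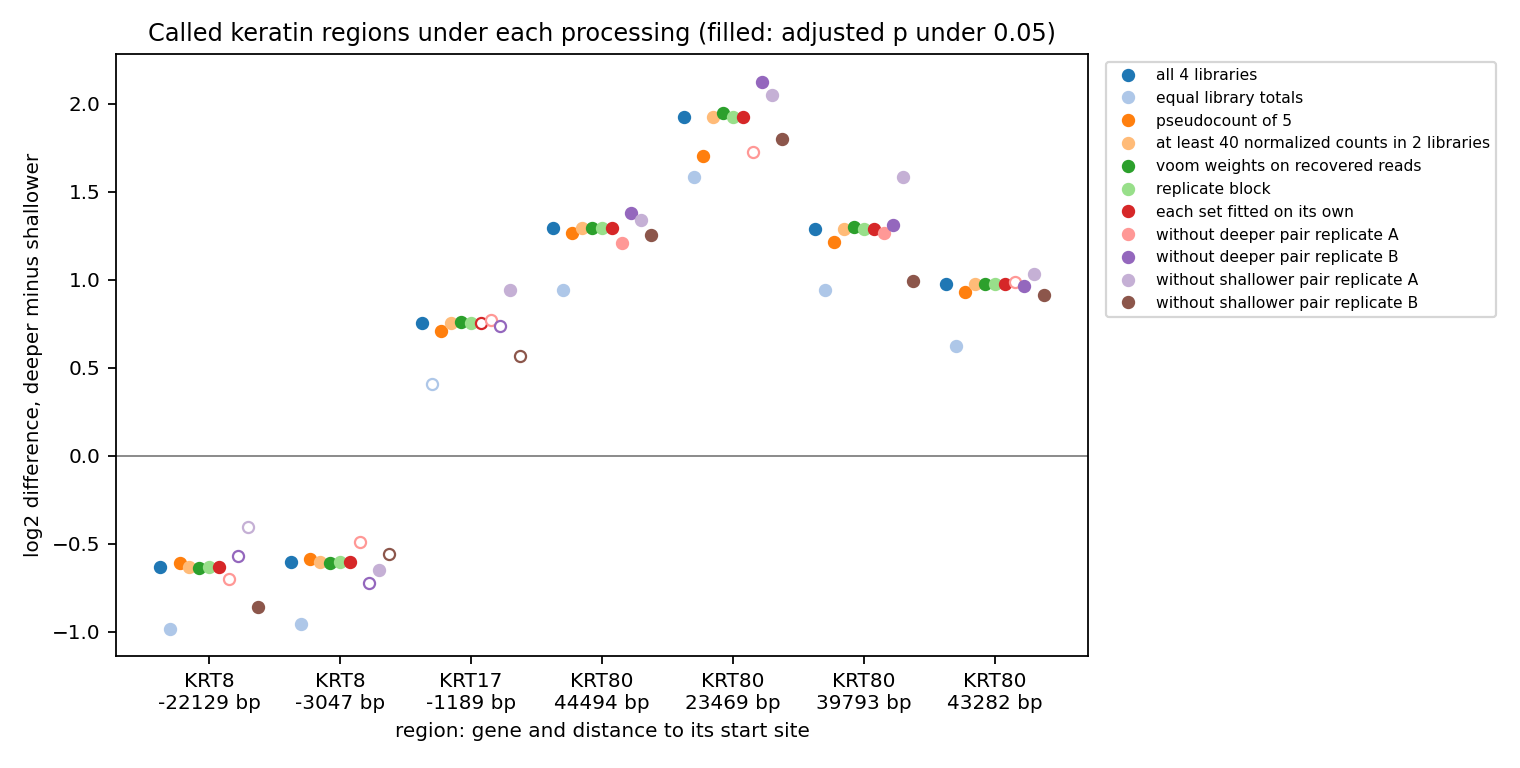
Log2 difference (deeper minus shallower pair, vertical axis) of the 7 called keratin regions with all 4 libraries and under each alternative setting, filled where the adjusted p was under 0.05. The KRT80 regions at 44494 and 39793 bases are filled under all settings shown, and the 2 KRT8 regions and the KRT17 region are open under several.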

How the data were processed

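ATAC-seq of 4 MCF10A libraries was analysed from 1 deposited table of 58127 regions. Per the submitters' processing notes, CASAVA 1.4 and hg19 were used, while which aligner, peak caller, read counter or differential test the authors ran is not given in the sources used here. Its columns are, per the file headers, 4 log10 normalized values, a log2 fold change and a p-value, all as deposited by the authors. The log2 ratio of the columns headed shG8d over shNC differed from the deposited log2 fold change by at most 0.00920.

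Back-transformed from log10, the values in each column were whole multiples of a fixed step, the worth of 1 read (100% within 0.05 reads). The steps recurred in all 3 sets under exchanged headings (relative difference at most 1.38e-09), and columns were paired by step. Deeper and shallower pairs were compared by limma 3.58.1 (R 4.3.3) on log2(normalized count + 1) over all regions, using its mean-variance trend, with Benjamini-Hochberg adjustment at 0.05. The pseudocount of 1 understates differences of low regions. A minimum of 10 normalized counts in 2 libraries removed 0 regions, so all 38 keratin regions were tested. Median reads per region were 65 and 68 (deeper pair) and 48 and 49 (shallower pair). A limit of 3 reads equals 2.42 to 3.62 normalized counts and covers counting error only. Libraries of a pair differed by more than sampling noise (chi-square per region 2.09 for the deeper, 2.68 for the shallower). The fit was also run on simulated data with few changed regions, as a check of the code. This gives no error rate for these data.

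The design assumed counts or normalized values, and since the unit is log10 the test for normalized values was used. Named regions were every promoter region, every called region and each keratin's region of highest mean, and others are given as examples chosen after their values were seen. The keratins, gene lists and markers were chosen with earlier results of these data known. Alternatives were equal library totals, a pseudocount of 5, a minimum of 40 normalized counts, each set on its own, a replicate block, leaving out each library and, added after seeing the data, voom weights on recovered reads. The 96 symbols that a spreadsheet had turned into dates were left out of the promoter background. RefSeq tables (GRCh38.p14) gave the promoter sequence.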

Additional observations from a re-analysis of the deposited data

How the results depend on the processing

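With equal library totals, 4 common and 1 shNC-specific keratin regions and both of the 2 shG8d-specific ones were called lower. Of all 58127 regions, 16345 were then called lower and 2580 higher. The promoter differences of KRT6A (−0.079), KRT7 (−0.16), KRT14 (−0.29) and KRT18 (−0.29) changed sign. These sign changes follow from the median shift of −0.35 that this scaling makes. With each set fitted on its own, 3 common keratin regions were higher. Over all sets 6 keratin regions were then higher and 3 lower, beside 5430 and 8620 of all regions. Leaving out 1 library gave 1 to 4 common regions higher and 0 to 2 lower, 1 to 8 shNC-specific regions higher and 0 to 1 lower, and 0 shG8d-specific regions in either direction. The promoter difference then ran from −0.064 to 0.19 for KRT14 and from −0.53 to 0.65 for KRT18. The cause was not tested. A pseudocount of 5, a minimum of 40 normalized counts in 2 libraries and voom weights changed the call of 0 of the 21 named regions.

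The letters A and B gave 2 replicate numbers shared by the pairs. Differences of A minus B correlated at −0.00393 between the pairs, so the letters were not taken to pair the libraries. With a replicate block, 6 keratin regions were higher and 2 lower, against 5 and 2 without it, and all 21 named regions kept their call.

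With 2 libraries a pair, each limma fit without a library assumes that the remaining one varies like the other pair. Count models were planned as an alternative and were not run, although whole reads were recovered and were used with voom weights. Regions with few reads, such as that at the end of KRT80, are limited by depth.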

Other observations

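The genes that neighbour KRT80 in RefSeq order were looked at after the KRT80 values were seen, and they carry no test beyond the fit over all regions. A common region named for the olfactory receptor pseudogene OR7E47P, 23122 bases past its start, had 96.3 ± 8.80 normalized counts in the deeper pair against 169.7 ± 21.3 in the shallower pair (SD, n = 2 each) and was lower (log2 difference −0.81, SE 0.200, limma adjusted p = 0.00755). A shNC-specific region of the noncoding gene LINC00592, 6426 bases past its start, had 121.0 ± 36.6 in the deeper pair against 70.3 ± 6.57 in the shallower pair (SD, n = 2 each) and was higher (log2 difference 0.75, limma adjusted p = 0.0302). A common LINC00592 region at 4864 bases had a log2 difference of 0.01. The ATG101 promoter, an autophagy gene, was at 0.14 (limma adjusted p = 0.669), and the region of KRT7-AS was at 0.40 (limma adjusted p = 0.105). The OR7E47P region was thus called lower and a LINC00592 region higher, where 12.4% of all regions of the table were called lower and 11.1% higher. Whether these regions bear on the KRT80 values was not tested.

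Among keratins outside the 10, the lowest difference among called regions belonged to a shG8d-specific region 16559 bases past the start of KRT12, a cornea-associated type I keratin. It had 16.8 and 18.6 normalized counts in the deeper pair, against 72.5 and 66.8 in the shallower pair (log2 difference −1.92, SE 0.321, limma adjusted p = 0.000519), in a set in which 70% of all regions were called lower.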
